A study of Homo sapiens with 8 samples.

Results

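The serpins of clade B are protease inhibitors that, unlike most of their superfamily, lack a classical secretion signal and work largely inside cells. An inhibitory serpin offers its reactive centre loop as bait, is cut by the protease and traps it in a covalent complex, so that inhibitor and enzyme are both used up. Clade B genes lie in 2 chromosomal clusters, and their products are known for shielding cells from granule and lysosomal proteases and for roles in epithelia and tumours. Here 8 of them were followed in the human non-small-cell lung carcinoma line H460. They are SERPINB2, SERPINB5, SERPINB7, SERPINB8 and SERPINB11 of the 18q21 cluster and SERPINB1, SERPINB6 and SERPINB9 of the 6p25 cluster. Every probe set that the array annotation assigns to 1 of these symbols alone was taken. That gave 13 of 54613 probe sets, for 6 of the 8 genes, among 19775 genes measured in all. SERPINB1 had 4 probe sets, SERPINB9 had 3, SERPINB5 and SERPINB8 had 2 each, and SERPINB7 and SERPINB11 had 1 each. SERPINB2, the plasminogen activator inhibitor also called PAI-2, and SERPINB6, an inhibitor of cathepsin G, were not analysed here because no probe set was listed under their symbols.

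Total RNA came from 4 arrays of TRAIL-sensitive H460 cells (H460S, labelled control) and 4 arrays of H460 cells with acquired TRAIL resistance (H460R), which had received TRAIL every day for 6 months. TRAIL is a tumour necrosis factor family ligand that starts apoptosis through death receptors. The comparison asks how gene expression in the sensitive control cells differs from that in the resistant cells after long exposure, with 1 line per state. Resistance, the long exposure and the time in culture cannot be told apart, and the labels do not say whether the 4 arrays of a group were separate cultures, so the spread given may be technical. The family was chosen by a measured value, the fall of SERPINB11 in H460R, which was among the largest of this same comparison. For the 6 measured serpins, differences between the groups are therefore given as a description, with standard errors and without tests of their own. Values are array signals, or differences of log2(signal + 1) as H460R minus H460S with their standard error (n = 4 arrays per group). For the 6 measured serpins, and wherever a probe set is named, the standard error is that of the limma fit across all probe sets. For other genes the standard errors and adjusted p-values are those of the fit across all genes.

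The arrays were similar in median signal and in correlation within their group, whereas the ACTB control measure given below separated the groups. Median signals lay between 32.6 and 37.4, and each array correlated with the others of its group at 0.937 to 0.952 on average, against 0.921 to 0.929 with the other group. The 3′ minus 5′ difference of the ACTB control probe sets, a measure of RNA integrity and labelling, averaged 0.23 in H460S and 0.11 in H460R (exact two-sided permutation p = 0.0286, the smallest that 4 against 4 arrays can give). That of GAPDH averaged -0.14 and -0.13 (exact permutation p = 0.686). The part of the ACTB shift in the results was not tested. Of the epithelial markers, KRT8, KRT18 and KRT19 lay at log2 levels of 11.28 to 13.18 in both groups, whereas EPCAM and CDH1 lay below 5.01, the level of the median probe set. KRT19 fell by 1.24 ± 0.10 (limma adjusted p = 0.000116). The summed signal of 4 squamous markers (KRT5, KRT14, IVL and SPRR1B) was 12.8 to 41.7 in H460S and 29.95 to 58.7 in H460R, and 0 of the 4 passed. That of 4 haematopoietic markers was 117.8 to 158.1 and 144.5 to 169.2, that of 3 endothelial markers 80.2 to 87.0 and 50.7 to 91.5, and that of 5 fibroblast markers 1216 to 1359 and 1160 to 1292. Most of the fibroblast sum came from COL3A1, with a mean signal of 998.7 in H460S and 990 in H460R. Likewise CD14 gave most of the haematopoietic sum, with means of 88.0 in H460S and 101.7 in H460R. PECAM1 gave most of the endothelial sum, with means of 69.5 and 53.5. None of these 3 lists had a member past the threshold (0 of 12 genes), where 30.3% of all genes passed. No marker was listed at a signal of 0.

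Promoter sequences are shown for SERPINB5 and SERPINB1, which differed most between the groups among members with a promoter in the RefSeq table, and for SERPINB8 and SERPINB9, whose brightest probe sets differed little. They are the 250 bases before the start of transcription in GRCh38.p14, read 5′ to 3′ on the gene's strand. Capitals mark matches on either strand to 3 motifs: the GC box GGGCGG bound by SP1-type factors, the TATA element TATAA, and the AP-1 element TGANTCA.
SERPINB5: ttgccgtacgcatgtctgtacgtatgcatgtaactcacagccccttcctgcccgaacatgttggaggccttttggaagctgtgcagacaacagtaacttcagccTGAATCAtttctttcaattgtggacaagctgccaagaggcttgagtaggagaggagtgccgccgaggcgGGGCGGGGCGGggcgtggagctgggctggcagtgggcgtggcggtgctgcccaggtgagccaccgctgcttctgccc
SERPINB1: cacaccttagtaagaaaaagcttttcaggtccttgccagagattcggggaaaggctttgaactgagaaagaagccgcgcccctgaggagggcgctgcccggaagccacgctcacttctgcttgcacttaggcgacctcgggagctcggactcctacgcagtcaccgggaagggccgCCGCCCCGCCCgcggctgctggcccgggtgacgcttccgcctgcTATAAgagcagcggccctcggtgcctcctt
SERPINB8: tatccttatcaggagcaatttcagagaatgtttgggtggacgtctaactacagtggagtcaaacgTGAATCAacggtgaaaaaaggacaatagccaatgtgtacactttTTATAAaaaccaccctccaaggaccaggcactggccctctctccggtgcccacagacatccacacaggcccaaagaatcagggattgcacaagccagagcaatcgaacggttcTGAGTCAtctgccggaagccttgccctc
SERPINB9: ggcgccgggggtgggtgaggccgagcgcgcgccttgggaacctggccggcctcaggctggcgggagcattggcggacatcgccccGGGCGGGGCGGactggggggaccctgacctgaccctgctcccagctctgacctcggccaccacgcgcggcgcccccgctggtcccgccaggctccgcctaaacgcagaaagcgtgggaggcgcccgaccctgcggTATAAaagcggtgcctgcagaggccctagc

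These stretches lie at chr18:63476708-63476957 on the plus strand for SERPINB5, chr6:2841864-2842113 on the minus strand for SERPINB1, chr18:63969831-63970080 on the plus strand for SERPINB8 and chr6:2903310-2903559 on the minus strand for SERPINB9. The SERPINB5 promoter held 2 overlapping GC boxes and 1 AP-1 match, and no TATA match. SERPINB1 and SERPINB9 each held 2 overlapping GC boxes and 1 TATA match, and no AP-1 match. In SERPINB8 there were 2 AP-1 matches, the TATA letters were met once on each strand in overlapping positions, and no GC box was found. Of 35116 promoters of this length, 42.6% held a GC box, 18.9% a TATA match and 6.57% an AP-1 match. The 6p25 pair was rich in G and C, at 63.6% with 21 CpG for SERPINB1 and 74.4% with 27 CpG for SERPINB9, where the median promoter had 58.0% and 11. SERPINB5 had 60.0% and 13 CpG, and SERPINB8 49.2% and 7. The 4 promoters thus fall into a pair with GC boxes and TATA letters (SERPINB1 and SERPINB9), SERPINB5 with GC boxes and an AP-1 match, and SERPINB8 with AP-1 matches and TATA letters.

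Among the 6 measured members, SERPINB11 and SERPINB5, both of the 18q21 cluster, had the lowest and the highest difference. SERPINB11, also called epipin, is a little characterised member. Its probe set 1552463_at read 584, 591, 607 and 563 in the H460S arrays and 17.1, 18.03, 13.1 and 17.2 in the H460R arrays. The groups lay far apart, and the H460R signals were below that of the median probe set, 31.2, where such arrays are noisy. The log2 level was 9.20 ± 0.05 (SD, n = 4) in H460S and 4.11 ± 0.20 in H460R, a difference of -5.09 ± 0.12, or 34.0-fold on this scale. With a pseudocount of 16 in place of 1 the difference was -4.22, so its size rests on the low H460R signal. Among 19775 genes its fall was number 4 by size, and number 3 with a pseudocount of 16, a place that depends on how such low signals are treated. With a pseudocount of 1, FGF13 stood just before it with -5.18 and KCNJ8 just after it with -4.56.

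SERPINB5 encodes maspin, a serpin without protease inhibitory activity that has been studied as a tumour suppressor in epithelial cancers. Probe set 204855_at read 437, 432, 463 and 460 in H460S and 1092, 1063, 1064 and 1056 in H460R. All 4 resistant arrays were above all 4 sensitive arrays, with a difference of 1.25 ± 0.08, or 2.38-fold. The other probe set, 1555551_at, read 13.3, 12.6, 11.7 and 12.01 in H460S and 17.8, 2.71, 11.5 and 15.6 in H460R. It was dim everywhere, its groups overlapped, and its difference of -0.28 ± 0.49 turned to 0.24 without H460R array 2. The higher SERPINB5 level was thus seen on the bright probe set alone.

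**Figure D1:**
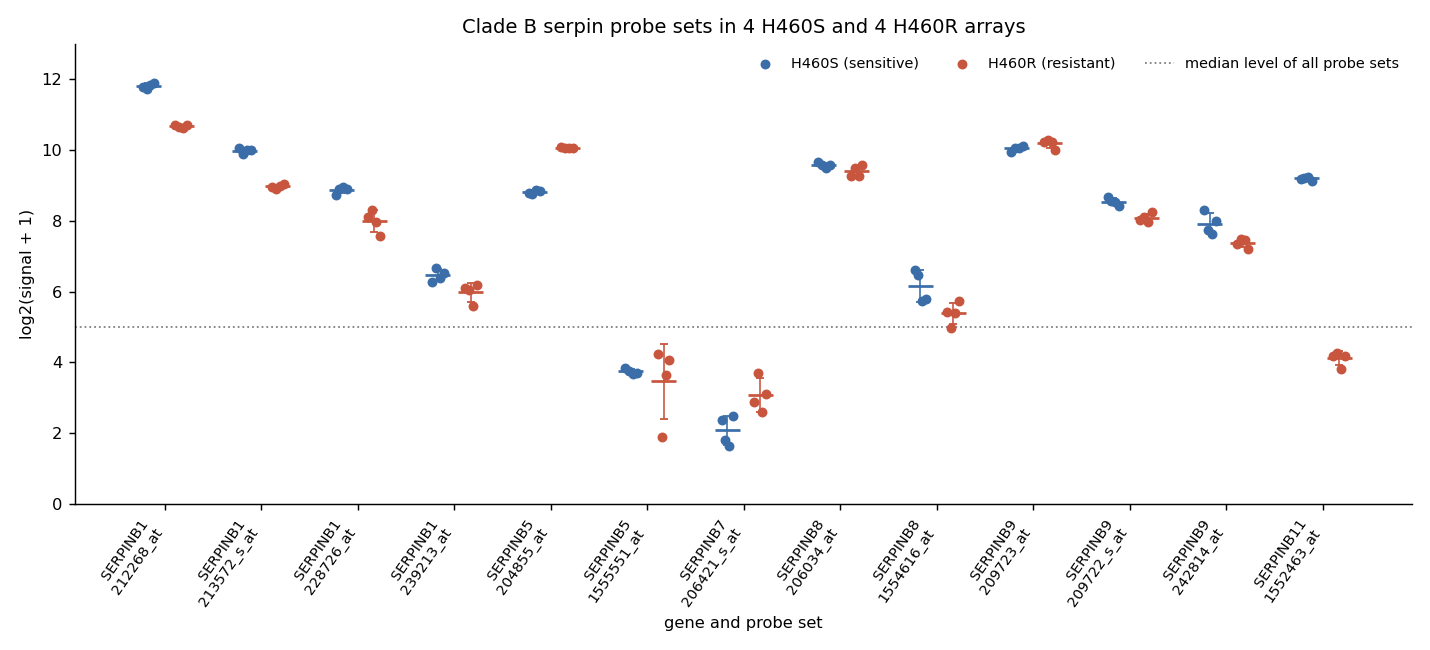
Points show log2(signal + 1) of each of the 13 clade B serpin probe sets in 4 H460S and 4 H460R arrays, with bars for the mean and SD of each group and a dotted line at 5.01, the level of the median probe set. SERPINB11 drops from 9.20 to 4.11, SERPINB5 on 204855_at rises above its H460S arrays to 10.06, and the 4 probe sets of SERPINB1 all lie lower in H460R.

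The other 18q21 members, SERPINB7 and SERPINB8, differed less than SERPINB5 on its bright probe set. SERPINB7, or megsin, is a serpin of the epidermis whose loss causes a palmoplantar keratoderma. It read 4.13, 2.50, 2.12 and 4.58 in H460S and 6.28, 12.1, 5.04 and 7.54 in H460R. The groups did not overlap, but every value was far below the median probe set, and the difference of 0.99 ± 0.29 shrank to 0.29 with a pseudocount of 16. SERPINB8, known as an inhibitor of the proprotein convertase furin, had 2 probe sets. On 206034_at it read 811, 757, 715 and 757 in H460S and 615, 714, 618 and 770 in H460R, with overlapping groups and a difference of -0.17 ± 0.11. The dimmer 1554616_at read 96.9, 87.5, 52.6 and 54.1 in H460S and 42.0, 30.5, 40.9 and 51.9 in H460R. There the groups were just apart and the difference was -0.77 ± 0.26.

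SERPINB1 was lower in resistant cells on each of its probe sets. It encodes the monocyte and neutrophil elastase inhibitor, which blocks neutrophil elastase, proteinase 3 and cathepsin G. The brightest, 212268_at, read 3557, 3413, 3654 and 3833 in H460S and 1664, 1602, 1588 and 1661 in H460R. No resistant array came near a sensitive array, and the difference was -1.15 ± 0.09, or 2.22-fold. On 213572_s_at the signals were 1059, 951, 1026 and 1018 in H460S and 496, 481, 505 and 522 in H460R, a difference of -1.01 ± 0.09. On 228726_at they were 427, 479, 492 and 474 against 277, 314, 248 and 190, a difference of -0.88 ± 0.16. The dimmest, 239213_at, gave 76.8, 101.3, 82.2 and 91.7 against 67.4, 65.5, 47.1 and 71.4, a difference of -0.49 ± 0.16. The size of the difference thus fell with the brightness of the probe set, while its direction was shared by all 4, which measure the same gene on the same arrays and are not replicates.

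SERPINB9, the inhibitor of granzyme B with which cytotoxic lymphocytes protect themselves and which some tumour cells also express, gave no single answer. Its brightest probe set, 209723_at, read 991, 1074, 1061 and 1100 in H460S and 1195, 1255, 1200 and 1026 in H460R. The groups overlapped because of H460R array 4, and the difference was 0.14 ± 0.10. The 209722_s_at probe set read 404, 374, 372 and 340 in H460S and 260, 272, 249 and 303 in H460R, a difference of -0.46 ± 0.11 with all resistant arrays lower. On 242814_at the signals were 316, 213, 196 and 254 against 163, 178, 174 and 147, a difference of -0.54 ± 0.17, again with no overlap. Averaged over its 3 probe sets SERPINB9 differed by -0.29, against 0.14 on the brightest alone. Which probe set reports the gene best was not tested.

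**Figure D2:**
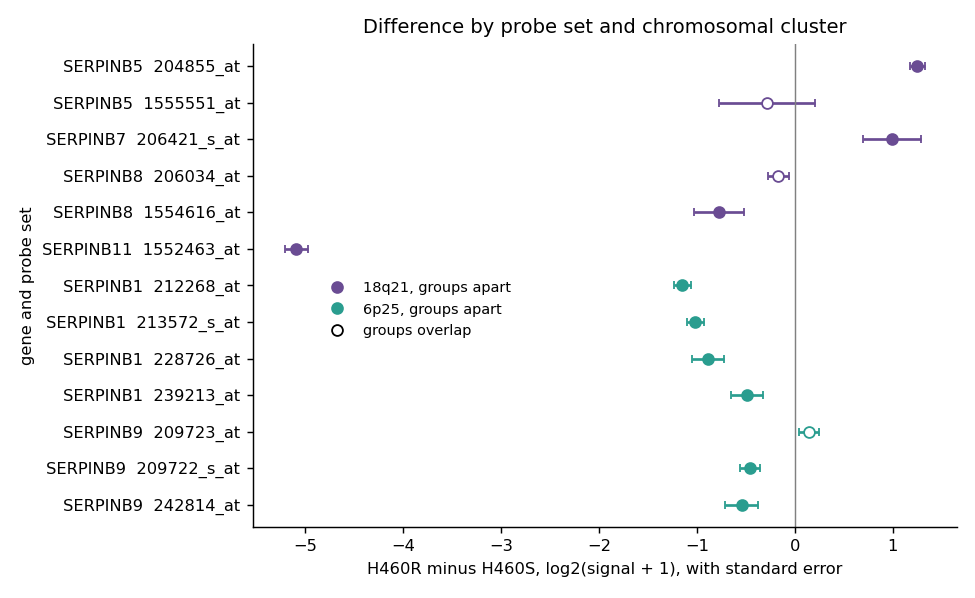
The difference H460R minus H460S on the log2(signal + 1) scale, with its standard error, is plotted for each of the 13 probe sets, with 18q21 genes in purple and 6p25 genes in green, and open symbols where the groups overlap. The 18q21 probe sets run from -5.09 to 1.25 and the 6p25 probe sets from -1.15 to 0.14.

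Set side by side, the 6p25 probe sets were mostly lower in H460R and the 18q21 probe sets went in both directions. Of 7 probe sets from 6p25, 6 had all resistant arrays below all sensitive arrays and 1 overlapped. Of 6 from 18q21, 2 lay wholly above, 2 wholly below and 2 overlapped. Over all 54613 probe sets the groups did not overlap in 26.4%, with H460R above in 12.5% and below in 13.9%. The median difference was -0.54 for 6p25 and -0.22 for 18q21, beside -0.04 for all probe sets. The 18q21 median was set by few probe sets: it was 0.02 without H460R array 2, and -0.17 when SERPINB11 was left out, a choice made after seeing the data. The 6p25 median came from SERPINB1 and SERPINB9 only, and 4 of the 7 probe sets belong to SERPINB1. Past the threshold of an adjusted p below 0.05 in the fit across all probe sets were 6 of the 13, of which 5 were lower (the 3 brightest of SERPINB1, 209722_s_at of SERPINB9, and SERPINB11) and 1 higher (204855_at of SERPINB5). Of all probe sets 19.5% passed, 9.13% higher and 10.4% lower. Since this comparison served to choose the genes, nothing is read from that count. The place of 209722_s_at among the 6 was lost when any of H460S arrays 2 and 3 or H460R arrays 1, 2 and 3 was left out. With the array number as a replicate block, 209722_s_at and 228726_at of SERPINB1 both lost their place.

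The genes around the clusters went in both directions. In chromosomal order SERPINB11 lies between SERPINB3 and SERPINB7 among measured genes, both higher in H460R. Of these, SERPINB7 was far below the median probe set, and its difference was 0.29 with a pseudocount of 16. Of the 20 nearest measured genes outside the 18q21 cluster, 10 on each side, 4 rose, 4 fell and 12 did not pass, with a median difference of 0.02. The non-coding LINC01924 fell by 1.59 ± 0.46 (limma adjusted p = 0.0369), a dim gene that did not pass in 10 of 16 alternatives and differed by -0.45 with a pseudocount of 16. CCDC102B fell by 1.24 ± 0.26 (limma adjusted p = 0.0106), and DSEL, which encodes a relative of dermatan sulfate epimerase, rose by 0.86 ± 0.19 (limma adjusted p = 0.0112). CCDC102B missed the threshold when its probe sets were averaged. Around the 6p25 cluster 3 of 20 rose, 5 fell and 12 did not pass, with a median difference of -0.37. TUBB2A, a beta tubulin, rose by 1.61 ± 0.08 (limma adjusted p = 1.5e-05). SLC22A23, of the organic ion transporter family, fell by 1.11 ± 0.10 (limma adjusted p = 0.000189), and the forkhead factor gene FOXQ1 fell by 0.49 ± 0.08 (limma adjusted p = 0.00287). SLC22A23 missed the threshold once probe sets with a suffix were left out, or when its probe sets were averaged. Of all 19775 genes, 14.7% rose and 15.6% fell.

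**Figure D3:**
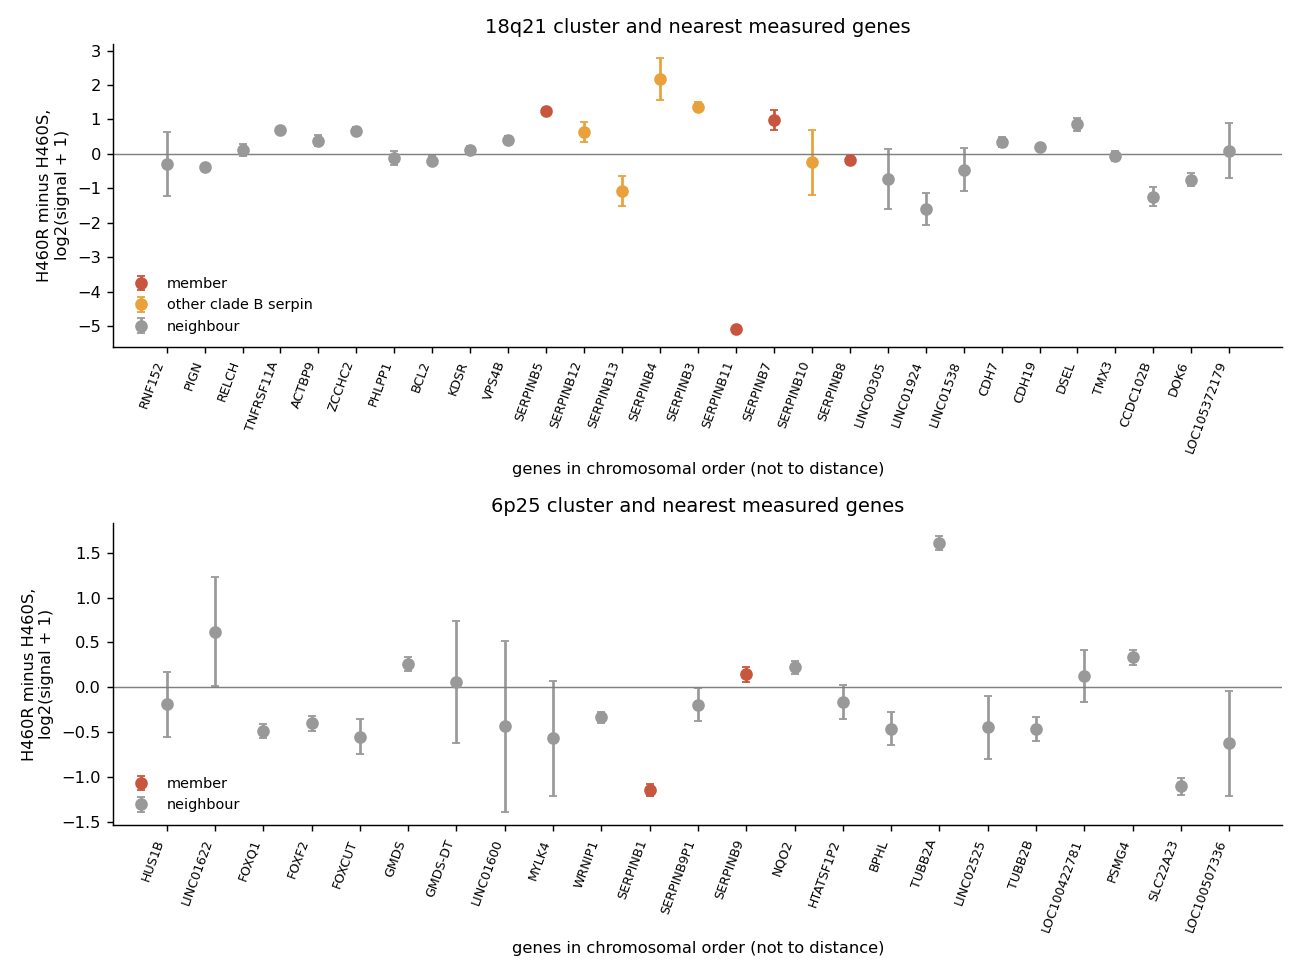
Each point is the difference H460R minus H460S of a gene on the log2(signal + 1) scale, with its standard error in the fit across all genes. The serpins and the 10 nearest measured genes on each side are shown, in chromosomal order with no distances. SERPINB11 at -5.09 stands alone in the 18q21 panel, and TUBB2A at 1.61 and SERPINB1 at -1.15 are the extremes of the 6p25 panel.

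The remaining clade B genes of 18q21 were examined in the fit across all genes. SERPINB3 and SERPINB4, the squamous cell carcinoma antigens that inhibit cysteine cathepsins and chymotrypsin-like proteases respectively, rose, and SERPINB10, SERPINB12 and SERPINB13 did not pass. SERPINB3 read 35.1, 54.3, 40.3 and 43.2 in H460S and 109.6, 111.8, 116.9 and 111.3 in H460R, with every resistant array higher, and rose by 1.38 ± 0.13 (limma adjusted p = 0.000287). SERPINB4 was dim, at 15.7, 1.21, 2.50 and 2.99 against 25.6, 24.9, 12.8 and 21.98, and its groups overlapped. It rose by 2.18 ± 0.61 (limma adjusted p = 0.0322), a call lost without H460S array 2, 3 or 4 or H460R array 1, 2 or 4, and with a pseudocount of 16 the difference was 0.82. SERPINB3 and SERPINB4 are near-identical copies, and all of their probe sets carry a suffix for possible cross-hybridisation, so their values cannot be told apart with certainty. SERPINB12 changed by 0.63 ± 0.29, SERPINB13 by -1.08 ± 0.44 and SERPINB10 by -0.25 ± 0.96, all at levels below the median probe set (limma adjusted p = 0.158, 0.111 and 0.886). The sign of SERPINB10 turned without any of H460S arrays 1 and 2 and H460R arrays 1 and 2. Of the 5, 2 passed, both higher, where 14.7% of all genes passed as higher. These 2 are the near-identical copies SERPINB3 and SERPINB4, so they may not count as separate genes here. The median of the 5 was 0.63 beside -0.03 for all genes. In the same fit over genes, with the brightest probe set of each, 4 of the 6 measured members passed, 2 higher (SERPINB5 and SERPINB7) and 2 lower (SERPINB1 and SERPINB11), where 30.3% of all genes did. As with the probe sets, nothing is read from that count. SERPINB7 missed the threshold in the fit over probe sets, with a pseudocount of 16, and with the array number as a replicate block. It also missed it with a robust prior and an intensity trend. The same held when any single array was left out other than H460S array 4 or H460R array 3.

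Serpins of other clades, most of them secreted, were largely dim in H460 cells. Among 19 such genes with a probe set, 2 rose and 2 fell, 15 missed the threshold, where 30.3% of all genes passed. Only 5 of the 19 lay at or above the level of the median probe set. SERPINE2, protease nexin-1, an inhibitor of thrombin and plasminogen activators, read 6582, 7728, 7670 and 7419 in H460S and 3735, 3819, 4189 and 4218 in H460R. It fell by 0.88 ± 0.09 (limma adjusted p = 0.000305) with no overlap. SERPINH1, the collagen chaperone HSP47, rose by 1.14 ± 0.14 (limma adjusted p = 0.000867). SERPINI1, or neuroserpin, rose by 1.001 ± 0.21 (limma adjusted p = 0.00908). SERPINA3, an antichymotrypsin, fell by 0.68 ± 0.17 from a log2 level of only 2.51 (limma adjusted p = 0.0220). It did not pass with a pseudocount of 16, with a replicate block, or with a robust prior and an intensity trend. The call was also lost without H460S array 2 or H460R array 1, 3 or 4. The median of the list was -0.01.

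Proteases known as targets of clade B serpins went in both directions. Among 23 such genes, 2 rose and 6 fell, 15 missed the threshold, and the list had a median of -0.34, where 14.7% of all genes rose and 15.6% fell. FURIN, the convertase that SERPINB8 inhibits, read 124.7, 87.9, 110.0 and 121.4 in H460S and 242, 231, 252 and 198 in H460R, and rose by 1.06 ± 0.14 (limma adjusted p = 0.00108). PLAU, the urokinase that SERPINB2 inhibits, read 950, 1080, 1023 and 993 against 394, 366, 329 and 401, and fell by 1.44 ± 0.09 (limma adjusted p = 4.6e-05). In both genes every resistant array lay on the same side of all sensitive arrays. PLAT, the tissue plasminogen activator, fell by 0.81 ± 0.19 (limma adjusted p = 0.0167). CTSS, the cysteine protease cathepsin S, rose by 1.03 ± 0.17 (limma adjusted p = 0.00310). ELANE, the neutrophil elastase that SERPINB1 inhibits, fell by 1.82 ± 0.41 (limma adjusted p = 0.0137), from signals of 29.3 to 34.2 to signals of 2.92 to 14.9, which are near or below that of the median probe set. With a pseudocount of 16 its difference was -0.93. GZMB, the granzyme B gene and target of SERPINB9, was dim and changed by 0.32 ± 0.37 (limma adjusted p = 0.594), and it is named here after its value was seen.

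**Figure D4:**
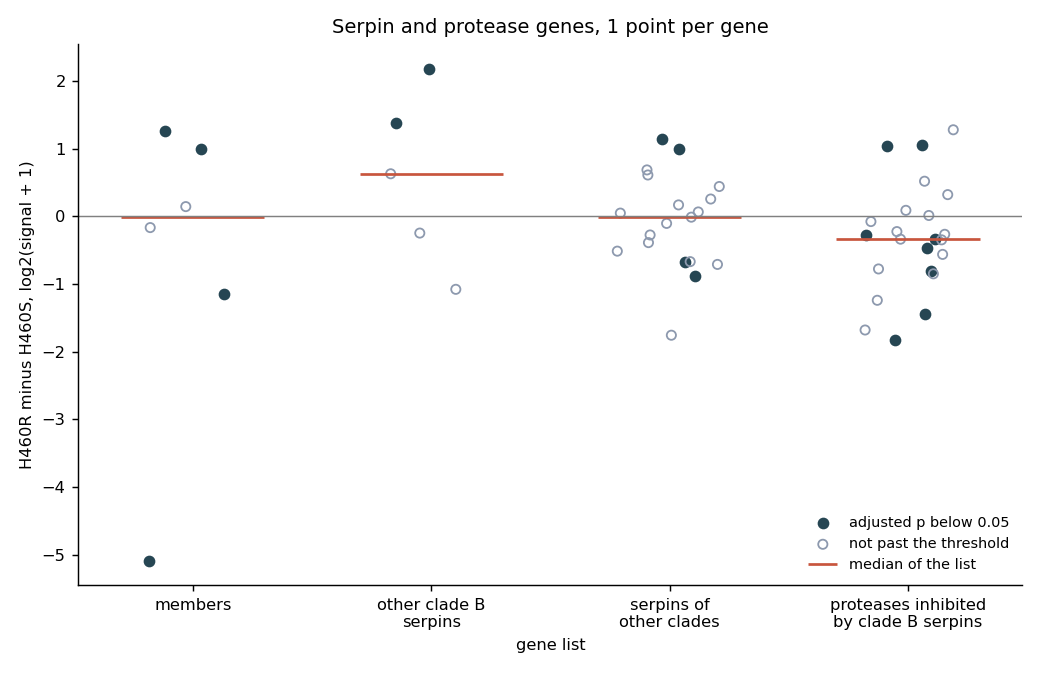
Each point is the difference H460R minus H460S of a gene on the log2(signal + 1) scale, filled where its adjusted p was below 0.05, for the 6 measured serpins followed here, 5 other clade B serpins, 19 serpins of other clades and 23 proteases, with the median of each list as a line. The medians are -0.01, 0.63, -0.01 and -0.34, and SERPINB11 lies below every other gene.

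The 5 genes whose pattern over the 8 arrays was most like that of SERPINB11, among 11640 genes at or above the level of the median probe set, were FGF13, ASNS, PDGFA, TSPAN7 and PPP2R3C. Pearson's r was 0.999 for each, a description over arrays that fall into 2 groups. FGF13, an intracellular fibroblast growth factor homologue, lay at a log2 level of 11.23 in H460S and 6.06 in H460R. ASNS, asparagine synthetase, lay at 12.26 and 9.90, and PDGFA, a platelet-derived growth factor chain, at 11.23 in H460S with a difference of -2.23. The tetraspanin gene TSPAN7 lay at 9.73 and 7.22, and PPP2R3C, a phosphatase regulatory subunit, at 9.61 and 8.83. Their narrow spread within each group and lower level in H460R follow from the choice by correlation with SERPINB11. The falls ranged from 0.78 to 5.18 on the log2 scale.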

How the data were processed

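The authors deposited 1 linear intensity per array for each of 54675 probe sets, of which 62 are controls. RMA is named per the submitters' processing notes, but the deposited intensities lack its log2 form: the mean after trimming 2% at each end was 200 on every array, so a change in total RNA per cell cannot be seen. Signals were taken as log2(signal + 1) without further normalization. Probe sets were named from the platform annotation, with 41097 carrying 1 symbol and 1801 several, and symbols were updated through RefSeq (GRCh38.p14), which matched 41043. A gene was represented by its probe set with the highest mean (19775 genes). limma 3.58.1 in R 4.3.3 (lmFit, eBayes) compared the groups, with Benjamini-Hochberg adjustment over all probe sets or genes, at an adjusted p below 0.05. The fit was tested on simulated data. The members, gene lists and naming rule were chosen with earlier results of these data known. That rule named every member probe set, the other clade B genes, up to 5 genes past the threshold per list, up to 3 neighbours per cluster, and the 5 genes most like SERPINB11. RefSeq promoters matched 7 of the 8 members, and the motifs were chosen with the sequences in view. Alternatives were a pseudocount of 16, quantile normalization, median centring, leaving out dim probe sets, array weights, a robust prior with an intensity trend, a replicate block, other choices of probe set and leaving out each array. The number of arrays limits the precision.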

Additional observations from a re-analysis of the deposited data

Results flagged for a closer look

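In a group of 4 arrays, H460R array 3 had the lowest SERPINB11 level, 3.82 on the log2(signal + 1) scale, where the other 3 resistant arrays lay between 4.18 and 4.25. Its gap to the nearest array was 0.833 of the range of the group, just beyond Dixon's 95% critical value. This was the only value beyond it among 26 groups (13 probe sets in 2 groups). Chance alone puts about 1 group in 20 beyond it, so 1 among 26 is about what chance gives. The signal of that array, 13.1, was also below that of the median probe set. The array remained far below the sensitive arrays.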

How the results depend on the processing

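As a description, over the main setting and all 15 alternatives run on them, the differences of SERPINB11, of SERPINB5 on 204855_at and of SERPINB1 on 212268_at and 213572_s_at ranged over -5.14 to -4.22, 1.23 to 1.33, -1.18 to -1.07 and -1.04 to -0.94. With dim probe sets left out, 13346 probe sets passed in all in place of 10637, from a smaller number tested. There 8 member probe sets were lower past the threshold in place of 5, and nothing is read from that count. The 18q21 median moved to -0.47. Of all probe sets, 9228 passed without H460S array 1 and 7885 without H460R array 3. Leaving out each array gave 5 to 6 member probe sets past the threshold, 4 to 5 of them lower. The 6p25 median was then -0.64 to -0.52 and the 18q21 median -0.36 to 0.023, positive without H460R array 2. SERPINB5 on 1555551_at ranged from -0.54 to 0.24, positive without that array too. SERPINB9 turned to -0.29 with the mean of its probe sets and then passed, from which nothing is read. There 209722_s_at at -0.46 and 242814_at at -0.54 count equally with 209723_at at 0.14. SERPINB10 (-0.83 to 0.28) turned to 0.28, 0.20, 0.01 and 0.14 without H460S array 1 or 2 or H460R array 1 or 2, and the cause was not tested. SERPINB5 with the mean of its probe sets changed by 0.48 and did not pass, since its dim probe set then counts equally. Same-numbered arrays did not deviate together (correlations of -0.03 to 0.01), so the numbers were not taken as pairs. With the number as a replicate block, 5062 probe sets passed in place of 10637, and 3 member probe sets were lower past the threshold. In the fit over genes SERPINB7, CCDC102B, PLAT, SERPINB4, SERPINA3 and LINC01924 missed it too. Of all probe sets past the threshold 46.9% were higher, against 55.3% after median centring. Low signals limit SERPINB7, SERPINB4 and the H460R level of SERPINB11.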

Other observations

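Probe sets of other clade B sequences were not all used above. The probe set shared by SERPINB4 and SERPINB3, 210413_x_at, lay at a log2 level of 5.41 in H460S and 6.19 in H460R, a difference of 0.78 ± 0.24 with overlapping groups. The second SERPINB3 probe set, 209720_s_at, lay at 2.01 and 4.89, with all resistant arrays higher. Among 6 probe sets of SERPINB13, an epithelial serpin also called headpin, 216258_s_at passed with a difference of -1.87 ± 0.46 (limma adjusted p = 0.0265) at levels of 3.38 and 1.504, and the other 5 did not, with differences of -1.08 to 1.23. SERPINB9P1, a pseudogene within the 6p25 cluster, lay at 5.91 and 5.72 with overlapping groups.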
